A study of Mus musculus with 18 samples.

Results

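The genes for myomegalin (Pde4dip) and for 4 related anchoring proteins, Akap9, Akap6, Pcnt and Cdk5rap2, were followed in nuclear and cytoplasmic RNA of mouse skeletal myofibers. Every probe that the array names after 1 of these 5 genes was taken, which gave 11 probes of 55681 probe names (5 of 35527 gene names): 4 of Pde4dip, 1 of Akap9, 2 of Akap6, 1 of Pcnt and 3 of Cdk5rap2. Pde4dip was selected on the difference between nuclei and cytoplasm in these same arrays, where 1 of its probes ranked among the most nuclear, so its differences between fractions are given as a description without a test. The other 4 genes were taken for what their proteins do, with earlier results of these data known.

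Fibers were dissociated from the muscles of 3-month-old CD1 female mice, and no treatment separated the groups. The muscles were extensor digitorum longus (EDL) and tibialis anterior (TA), which are fast muscles, and soleus, which is rich in slow fibers. Each array held RNA from 1 fraction of a pool of 5 to 10 fibers, after the nuclei had been spun down from a detergent lysate and the supernatant kept as cytoplasm. There were 3 arrays for each of the 6 groups, 18 in all, and the labels call the 3 biological replicates. EDL and soleus pools with the same number came from the same 2 mice, and 2 of the TA cytoplasm pools shared 1 mouse.

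Anchoring proteins of the AKAP group tie protein kinase A to particular places in the cell, often together with the phosphodiesterases that remove cAMP. Myomegalin binds the phosphodiesterase PDE4D and sits at the centrosome and the Golgi. Its paralog CDK5RAP2 and the large scaffolds pericentrin (Pcnt) and AKAP9, also called AKAP450, hold the complexes that nucleate microtubules at the centrosome of dividing cells. In myofibers these proteins are known to move to the nuclear envelope, where microtubules then start, and mAKAP, the product of Akap6, is held at the envelope by nesprin-1.

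The probe sequences show where along each gene the signal was read. Each probe is 60 bases long, and its 30 bases nearest to the 3′ end of the transcript are printed for the 9 probes on which the results turn, with the hexamers AATAAA or ATTAAA, the letters of polyadenylation signals, in capitals. Coordinates refer to mm9, as the array gives them.
Pde4dip A_55_P2058127: gtcaacctggcttatatgagaccctgcttt
Pde4dip A_55_P1984173: agaatgtgtctgcctttgtttggatttttt
Pde4dip A_55_P1984178: ctttctgatggctATTAAAgcaaactgtgt
Akap9 A_55_P2060369: tagagacctatttttgtataatggtcaaag
Akap6 A_55_P2350032: atgaagatcgacatagtaacatgcataggt
Akap6 A_55_P2350022: ggtttctatgcttcttgaggtggtaatgag
Pcnt A_52_P89425: aggtcagttgcaaatgaacacagaggaaaa
Cdk5rap2 A_55_P2112240: gacctttcagctAATAAAgcttgtggccct
Cdk5rap2 A_55_P2228948: cctggagatgagtcctatcagcgggcaggt

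The Pde4dip probes lay on the minus strand of chromosome 3. The most upstream, A_55_P2058127, was at chr3:97626020-97626079 and was assigned by the array to transcript variant 3. Next came A_55_P1984173 at chr3:97542806-97542865, assigned to variant 2, and then A_55_P1984178 at chr3:97493756-97493815 and A_55_P2058137 at chr3:97493748-97493807, both assigned to variant 1. The last pair share 52 of their 60 bases and count as 1 reading of the same transcript end. On the genome the first probe stood 132272 bases upstream of the last one, and the second 49058 bases upstream. ATTAAA was found in both probes of the variant 1 end and AATAAA in Cdk5rap2 A_55_P2112240, while the printed stretch of the other 8 member probes held neither. Of all 55681 probe names, 5978 held 1 of these 2 hexamers in the same stretch, and 1804 (3.24%) held TTTATT or TTTAAT, the same letters on the other strand. Akap9 was read at chr5:4080082-4080141 and Akap6 at chr12:54243654-54243713 and chr12:54249389-54249448, all on the plus strand. Pcnt was read at chr10:75814147-75814206 on the minus strand. For Cdk5rap2, also on the minus strand, the probes lay at chr4:69911396-69911455 (A_55_P2112235), chr4:69884059-69884118 (A_55_P2112240) and chr4:69880305-69880364 (A_55_P2228948), the last of them 3754 bases downstream of the second and assigned to an Ensembl transcript instead of the RefSeq one. No annotation of mm9 was used here, so exon, intron or untranslated region are not given. No probe of another gene name shared 30 bases with a member probe. A run of 16 bases was shared with 1 probe of another gene name by A_55_P2058127 and with 0 by the other member probes. What such sharing adds to the signal of A_55_P2058127 was not tested. The variant 3 transcript assigned to A_55_P2058127 was not among the RefSeq transcripts looked up here.

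Values are log2 intensity after quantile normalization of the arrays, and a level can be compared between arrays but not between probes. Between 78.9% and 89.3% of the spots of an array gave a positive and significant signal, and 58.6% to 71.2% were well above background. Replicates correlated across probes with r of 0.981 to 0.988 in nuclei and 0.915 to 0.967 in cytoplasm, so cytoplasmic values carry the larger error. All 12 myofiber markers were well above background on every array. Fiber type followed the labels, with Myh7, the slow myosin, 3.52 ± 0.44 higher (log2, SE) in soleus nuclei than in EDL nuclei and Myh4, a fast myosin, at -3.92 ± 0.74. Other cells were also represented. All 8 endothelial markers were well above background on every array and all 8 were called higher in nuclei, with a summed intensity of 6788 to 10600 in nuclei and 2102 to 7766 in cytoplasm. The 7 macrophage markers tested had 5 called higher in cytoplasm and 0 in nuclei, and the summed fibroblast markers reached 39680 to 74820 in nuclei and 20820 to 46710 in cytoplasm. Of the 8 satellite cell markers 4 to 6 were well above background on an array, and Myf5 and Calcr were not on any. The part of these cells in the member values was not tested. In RNA of pooled fractions, fewer nuclei of a type and less RNA per nucleus cannot be told apart.

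Slides also matter for what follows. All EDL and soleus cytoplasm arrays were on slide 1 and all EDL and soleus nuclei arrays on slide 2, so in these muscles slide and fraction cannot be told apart. The TA nuclei arrays were on slide 4 together with TA cytoplasm 2, while TA cytoplasm 3 was on slide 3 and TA cytoplasm 1 on slide 1.

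Pde4dip RNA gave a higher signal in nuclei at all 4 probes and in all 3 muscles. The largest difference was at the upstream probe A_55_P2058127, which was 12.2-fold higher in nuclei over the 3 muscles (log2 difference 3.61 ± 0.20, SE, 9 arrays against 9). On the log2 scale this difference was 2.76 with normexp background correction and 4.24 without scaling between arrays. In EDL its log2 values were 6.29, 6.58 and 6.94 in cytoplasm and 9.98, 10.03 and 9.99 in nuclei. In soleus they were 5.81, 7.03 and 6.28 in cytoplasm and 10.03, 10.06 and 10.11 in nuclei. In TA cytoplasm the values were 6.21, 5.52 and 4.60, against 9.29, 9.32 and 8.95 in nuclei. No cytoplasm array reached the lowest nuclear array, and the 9 nuclear arrays lay within a narrower range than the cytoplasmic ones. Taken singly, TA gave a difference of 3.74 ± 0.35, soleus of 3.69 ± 0.35 and EDL of 3.4 ± 0.35. It ranked 25 among the 40541 probes tested, counted from the most nuclear.

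The other Pde4dip probes differed less between fractions. At the variant 2 probe A_55_P1984173 nuclei exceeded cytoplasm by 1.17 ± 0.32 in TA, 1.57 ± 0.32 in soleus and 1.91 ± 0.32 in EDL. The TA value varied with the cytoplasm arrays used. It was 0.73 within the scan day shared by the TA nuclei and TA cytoplasm 2 and 3, and 0.38 within slide 4. Slide 4 holds 1 TA cytoplasm array, and slide, mouse and pool cannot be told apart here. The values of the variant 1 probe A_55_P1984178 were 12.93, 12.83 and 13.20 in EDL cytoplasm, 12.49, 13.32 and 12.87 in soleus cytoplasm and 12.78, 12.10 and 12.11 in TA cytoplasm. Those in nuclei were 14.13, 14.23 and 14.24 for EDL, 14.29, 14.27 and 14.36 for soleus and 13.38, 13.57 and 13.45 for TA. Nuclei were above cytoplasm without overlap, by 1.21 ± 0.22 in EDL, 1.41 ± 0.22 in soleus and 1.14 ± 0.22 in TA. A_55_P2058137, which reads the same end, gave 1.21, 1.44 and 1.19. With arrays scaled to their 75th percentile, A_55_P1984178 differed by 0.84 in EDL, 0.78 in soleus and 0.94 over the 3 muscles. Without scaling it differed by 1.66 over the 3 muscles. Over the 3 muscles the fold was 2.92 at the variant 2 probe and 2.39 and 2.43 at the variant 1 probes. Among all probes tested over the 3 muscles, 6.47% had all nuclear arrays above all cytoplasmic ones, as 3 of the 4 Pde4dip probes had. Within each muscle all 4 Pde4dip probes had nuclei above cytoplasm without overlap, as did 31.5% of all probes in EDL, 28.3% in soleus and 22.2% in TA. Since these arrays chose the gene, the shares are given without reading anything from them.

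**Figure D1:**
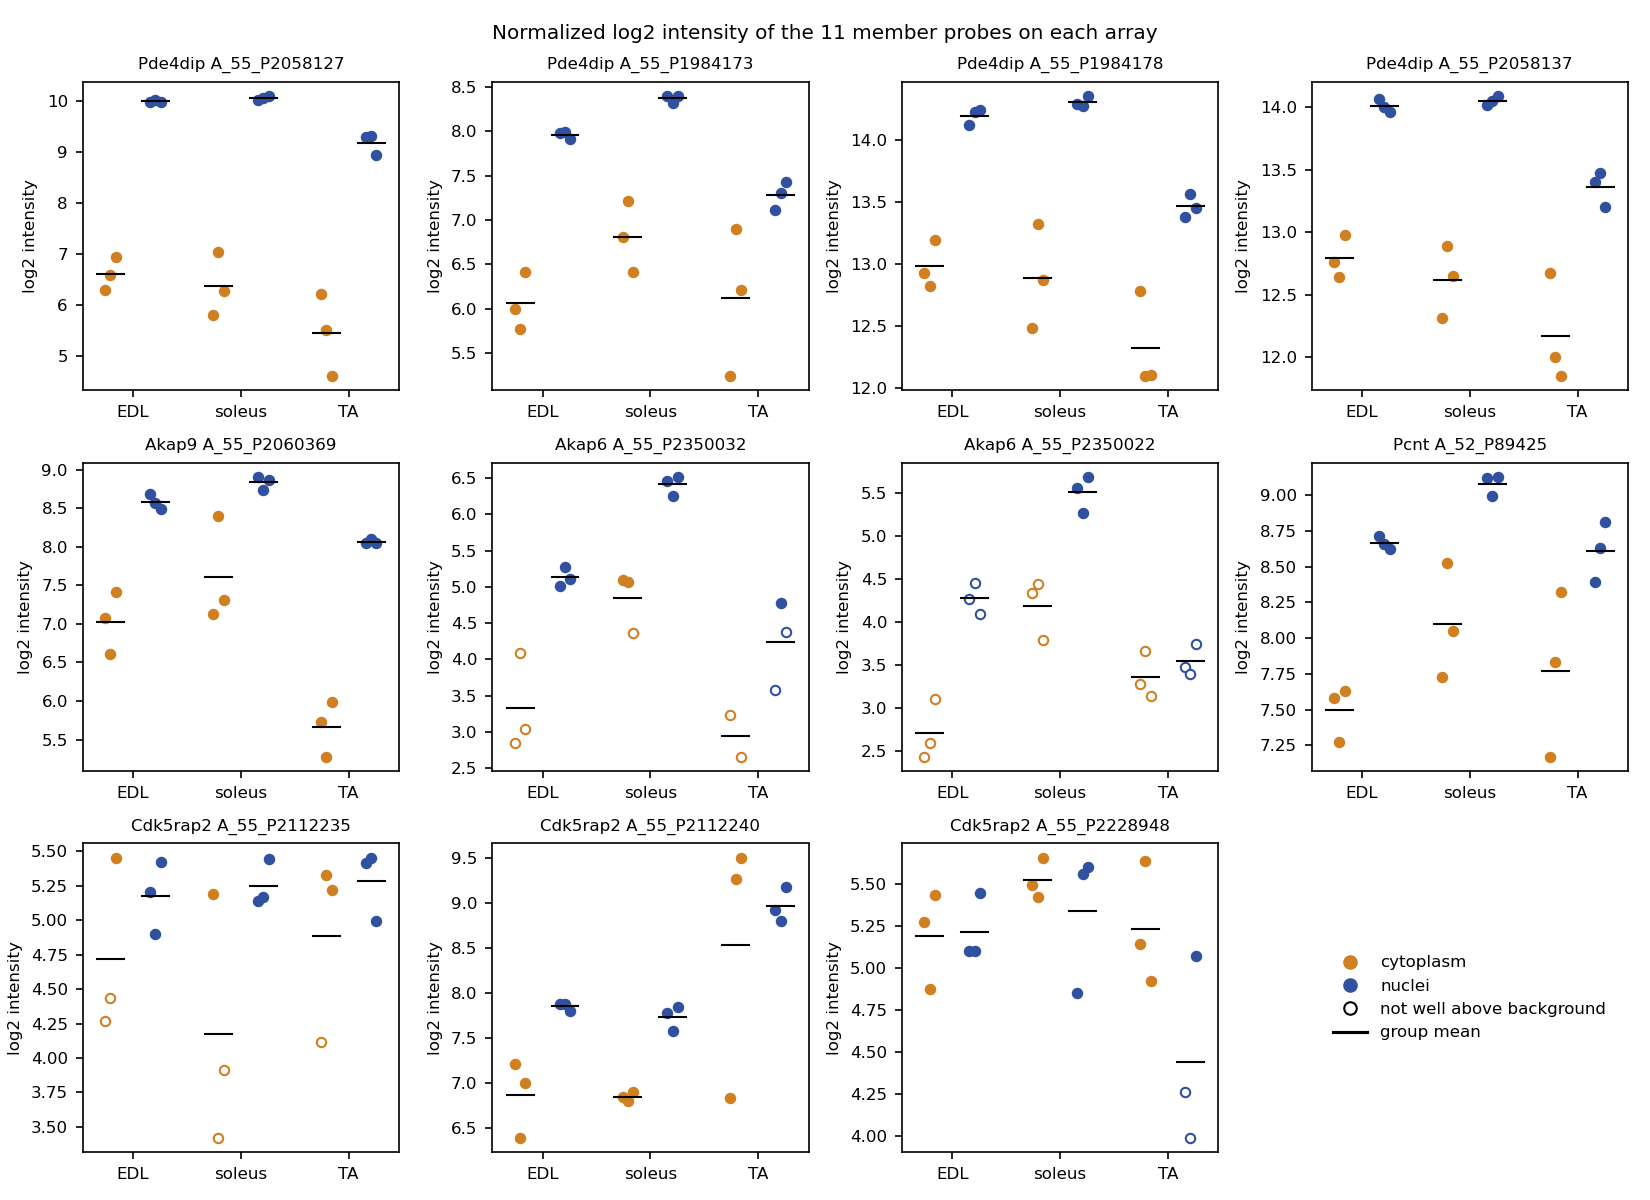
Normalized log2 intensity (y axis) of each of the 11 member probes in each muscle (x axis), with 1 point per array, cytoplasm left and nuclei right, open points for spots not well above background and a line at the group mean. The nuclear points of Pde4dip lie above the cytoplasmic ones in each muscle and close together, as do those of Akap9 and Pcnt. Akap6 points are mostly open in EDL and TA, but those of A_55_P2350032 in EDL nuclei are filled. The scale of the y axis differs between panels, so levels are not to be set against each other.

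Within an array, the upstream Pde4dip probe stood in another ratio to the variant 1 end in nuclei than in cytoplasm. Its value minus that of A_55_P1984178 lay between -7.51 and -6.25 on the 9 cytoplasm arrays, with a median of -6.58. On the 9 nuclei arrays it lay between -4.50 and -4.09, with a median of -4.25. The shift was 2.36 on average (1.52 with normexp), and the ranges of the fractions did not overlap. The ratio of the variant 2 probe to the variant 1 end shifted by 0.29, and the ranges of the fractions overlapped. The pair of overlapping probes shifted by 0.03. These are shifts of a ratio in the contrast that chose the gene, and no test is given for them.

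**Figure D2:**
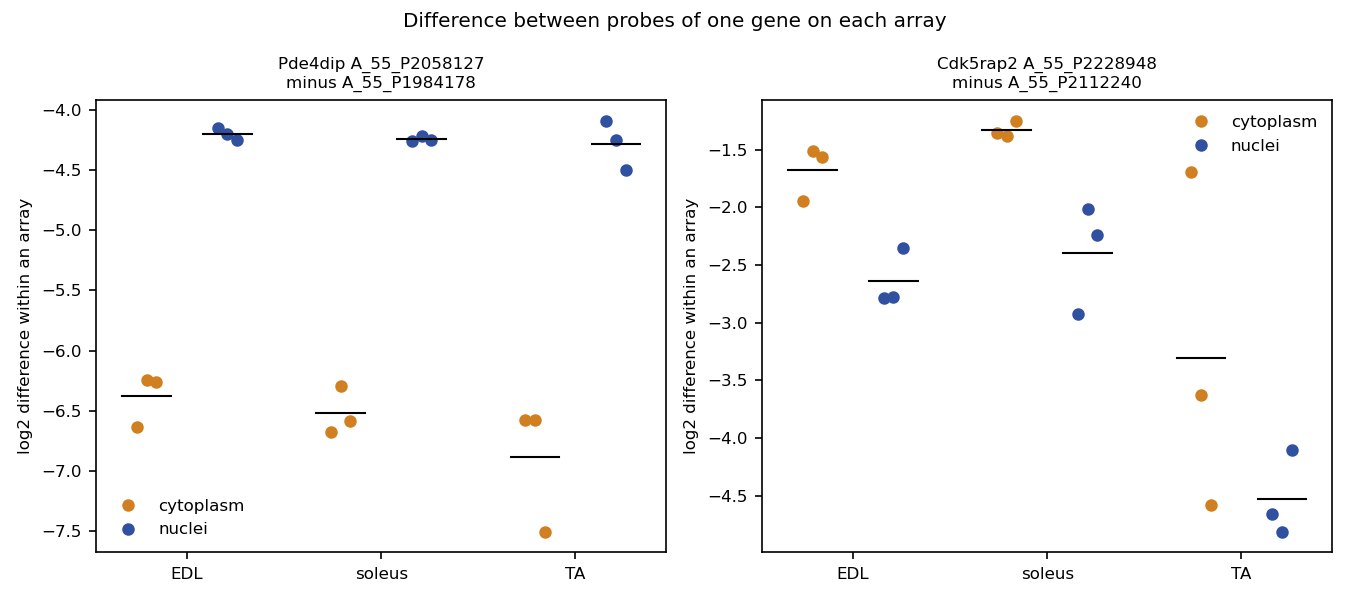
Difference in log2 intensity between probes of 1 gene on the same array (y axis), by muscle (x axis) and fraction, with 1 point per array and a line at the group mean. For Pde4dip the upstream probe minus the variant 1 end is -7.51 to -6.25 in cytoplasm and -4.50 to -4.09 in nuclei. For Cdk5rap2 the most downstream probe minus A_55_P2112240 is lower in nuclei than in cytoplasm by 1.09 on average.

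Akap9, Akap6 and Pcnt were higher in nuclei as well, and most Cdk5rap2 differences were smaller. Of the 7 probes of these 4 genes, 6 passed the threshold (adjusted p below 0.05, limma's moderated test) as higher in nuclei over the 3 muscles and 0 as lower, where 31.2% of all 40541 probes tested were called higher. Within a muscle 4 of the 7 were called higher in EDL (20.0% of all probes), 4 in soleus (18.7%) and 3 in TA (19.2%), and 1 was called lower in TA (33.5%). The median difference of the 7 was 1.00, beside -0.08 for all probes tested. With spots well above background required, 3 were called over the 3 muscles, 2 in EDL and 2 in TA. With 7 probes of 4 genes, and genes taken with earlier results known, these counts describe the members only.

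**Figure D3:**
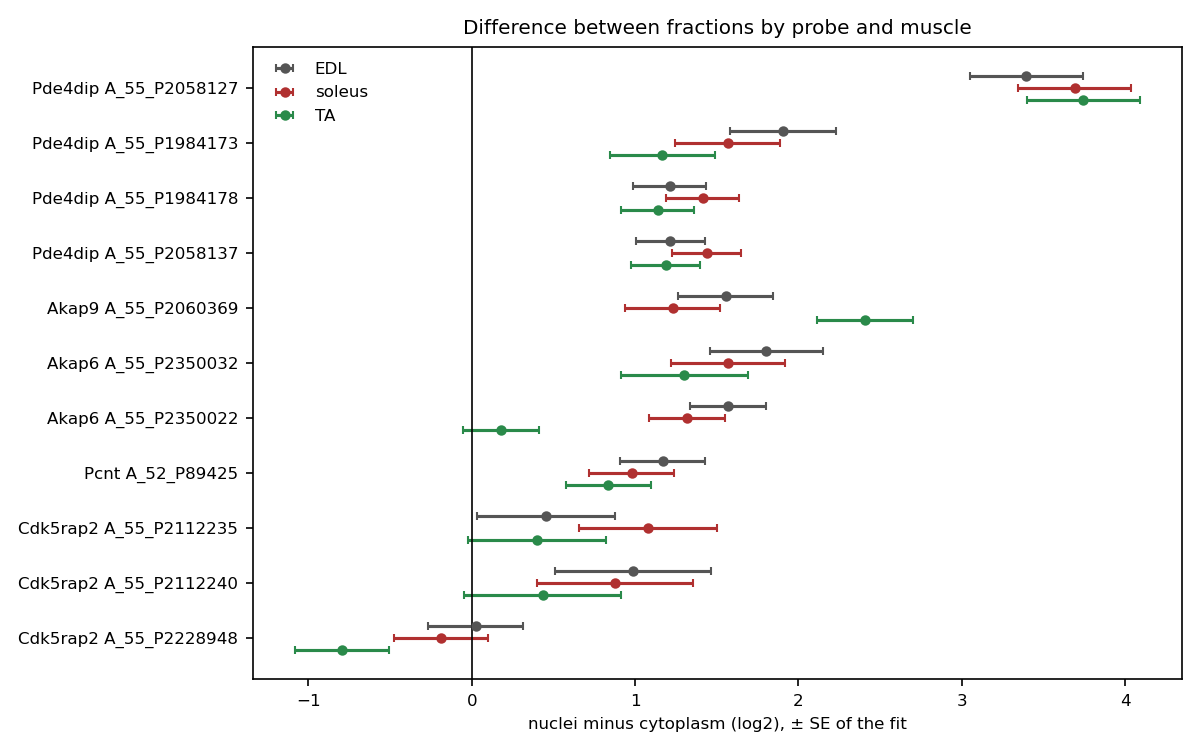
Nuclei minus cytoplasm (x axis, log2) of each member probe (y axis) in EDL, soleus and TA, with bars of ± 1 SE of the fit. The upstream Pde4dip probe lies at 3.4 to 3.74, Akap9 at 1.23 to 2.41, Pcnt at 0.84 to 1.17, and the most downstream Cdk5rap2 probe between 0.02 and -0.79.

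Akap9, the scaffold that brings protein kinase A to the centrosome and Golgi, was 3.32-fold higher in nuclei over the 3 muscles (1.73 ± 0.17, adjusted p = 3.50e-07). The values were 7.07, 6.61 and 7.41 in EDL cytoplasm, 7.12, 8.40 and 7.31 in soleus cytoplasm and 5.72, 5.27 and 5.99 in TA cytoplasm. In nuclei they were 8.69, 8.57 and 8.49 for EDL, 8.91, 8.74 and 8.87 for soleus and 8.05, 8.10 and 8.05 for TA. Nuclei lay above cytoplasm without overlap in each muscle, and soleus cytoplasm 2 was the cytoplasm array nearest to its nuclei. The difference passed the threshold in EDL (1.55 ± 0.29, adjusted p = 0.000576), soleus (1.23 ± 0.29, adjusted p = 0.00393) and TA (2.41 ± 0.29, adjusted p = 1.58e-05). Within slide 4, which holds 1 TA cytoplasm array, it was 2.80 in TA, a value with no test. The difference was larger in TA than in EDL by 0.85 ± 0.41, which did not pass (limma's moderated test, adjusted p = 0.42). The joint F test of the interaction over the 3 muscles did not pass either (adjusted p = 0.25).

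Pcnt, which encodes the centrosome scaffold pericentrin, was 1.99-fold higher in nuclei (1.00 ± 0.15, adjusted p = 2.85e-05). Its EDL values were 7.58, 7.27 and 7.63 in cytoplasm and 8.72, 8.66 and 8.62 in nuclei. In soleus they were 7.73, 8.53 and 8.05 against 9.12, 8.99 and 9.13. TA gave 7.17, 7.83 and 8.32 in cytoplasm and 8.39, 8.63 and 8.81 in nuclei. Fractions did not overlap in any muscle, although in TA the highest cytoplasm array came close to the lowest nuclei array. The difference passed the threshold in EDL (1.17 ± 0.26, adjusted p = 0.00199), soleus (0.98 ± 0.26, adjusted p = 0.00789) and TA (0.84 ± 0.26, adjusted p = 0.0138). Without TA cytoplasm 1 the TA difference was 0.53 and the call was lost (adjusted p = 0.0664), as it was without TA nuclei 3 (0.74, adjusted p = 0.0531). Against the 1 TA cytoplasm array on slide 4 it was 0.78, with no test.

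Akap6, which encodes the mAKAP scaffold, gave weak signals, higher in nuclei over the 3 muscles and, within each fraction, highest in soleus. Probe A_55_P2350032 was well above background on 9 arrays and A_55_P2350022 on 3, all in soleus nuclei. The values of A_55_P2350032 in nuclei were 6.46, 6.25 and 6.52 in soleus, 5.01, 5.28 and 5.1 in EDL and 3.58, 4.78 and 4.37 in TA. In cytoplasm they were 5.1, 5.07 and 4.36 in soleus, where 2 arrays were well above background, and 2.85, 4.08 and 3.04 in EDL, where none was. TA cytoplasm had values of 3.24 and 2.65 on 2 arrays, with no positive and significant signal on the third, which was left out of the fit. Soleus thus held the highest values in both fractions. A_55_P2350022 gave 5.56, 5.27 and 5.69 in soleus nuclei, 4.27, 4.46 and 4.10 in EDL nuclei and 3.48, 3.4 and 3.74 in TA nuclei. In cytoplasm it gave 4.34, 4.44 and 3.79 in soleus, 2.42, 2.59 and 3.1 in EDL and 3.27, 3.66 and 3.14 in TA, none of them well above background.

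Between fractions, A_55_P2350032 was higher in nuclei in soleus by 1.57 ± 0.35 (adjusted p = 0.00278). In EDL cytoplasm the probe was not well above background, so nuclei were at least 1.98-fold higher (adjusted p = 0.000808), and in TA at least 1.25-fold higher (adjusted p = 0.0117), with 1 of 3 TA nuclei arrays well above background. This TA call was lost without TA nuclei 2 (adjusted p = 0.0501), with 75th percentile scaling (0.73, adjusted p = 0.11) and with normexp (0.17, adjusted p = 0.16). Such a bound sets the mean of the brighter group against, per array, the higher of the probe's own value and the lowest signal that is well above background. The second probe, A_55_P2350022, was at least 2.19-fold higher in soleus nuclei than in soleus cytoplasm (adjusted p = 0.000488), and in EDL and TA neither fraction was well above background. The bounds hold for the reported processing only. Over the other settings the log2 difference of A_55_P2350032 fell as low as 0.38 in EDL and 0.69 in soleus. That of A_55_P2350022 in soleus fell as low as 0.36. Limma's adjusted p rose as high as 0.084, 0.16 and 0.12 for these 3. Over the 3 muscles the fitted differences were 1.56 ± 0.21 (adjusted p = 1.23e-05) and 1.02 ± 0.13 (adjusted p = 7.21e-06). These fell as low as 0.41 and 0.19 over the other settings, with limma's adjusted p up to 0.0103.

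Soleus against EDL was read within a slide, slide 1 for cytoplasm and slide 2 for nuclei, and Akap6 alone among the 5 genes passed the threshold in this comparison. In nuclei 1 of 11 member probes was called higher in soleus, beside 0.978% of all probes tested, and in cytoplasm 2 of 11 were, beside 0.853%. A_55_P2350022 was at least 2.35-fold higher in soleus nuclei than in EDL nuclei, where its own dim values set the bound, which therefore equals the fitted fold (fitted difference 1.23 ± 0.23, adjusted p = 0.0111), a call that was lost without any 1 of 4 arrays, with adjusted p up to 0.0768 (the arrays were EDL nuclei 1, EDL nuclei 3, soleus nuclei 1 and soleus nuclei 3). The groups of A_55_P2350032 did not overlap in nuclei, as was so with soleus higher for 21.8% of all probes tested. A_55_P2350032 differed there by 1.28 ± 0.35, but the test did not pass (adjusted p = 0.10). In cytoplasm it was at least 1.62-fold higher in soleus (fitted difference 1.52 ± 0.35, adjusted p = 0.0461). That call was lost with the mice as a replicate block (adjusted p = 0.0532) and in 11 of the 18 fits that left out 1 array, with adjusted p up to 0.14. These 11 left out EDL cytoplasm 1 or 3, soleus cytoplasm 1 or 2, any EDL or soleus nuclei array or TA nuclei 3. The difference of A_55_P2350022 in cytoplasm (1.48 ± 0.23, adjusted p = 0.00368) rests on spots that were not well above background in either muscle. In cytoplasm, no marker of other cells passed the threshold between soleus and EDL. Under normexp background correction the cytoplasmic differences were 0.28 and 0.19 and neither passed. The nuclear difference of A_55_P2350022 fell as low as 0.33 over the other settings, so its bound too holds for the reported processing only.

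For the other 4 genes no difference between soleus and EDL passed the threshold. At the Pde4dip variant 1 probe A_55_P1984178 it was 0.11 ± 0.22 in nuclei and -0.09 ± 0.22 in cytoplasm, and at the upstream probe 0.07 ± 0.35 and -0.23 ± 0.35. The order of group means of A_55_P1984178 was soleus nuclei, EDL nuclei, TA nuclei, EDL cytoplasm, soleus cytoplasm and TA cytoplasm. These SEs rest on 1 spread per probe over the 6 groups, cytoplasm included. At both probes soleus nuclei lay above EDL nuclei without overlap, while the cytoplasm arrays overlapped. With Akap6 counted, 7 of 11 member probes had soleus nuclei above EDL nuclei without overlap, beside 21.8% of all probes tested. Akap9 differed by 0.26 ± 0.29 in nuclei and 0.58 ± 0.29 in cytoplasm, and Pcnt by 0.41 ± 0.26 and 0.61 ± 0.26, each higher in soleus but short of the threshold (adjusted p from 0.30 to 0.94).

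TA and EDL lay on different slides except for TA cytoplasm 1, so their comparison mixes muscle and slide. Markers of other cells also differed. In TA nuclei 7 of 9 markers of cycling cells and 3 of 6 of smooth muscle and pericytes were called higher than in EDL nuclei. Of all probes 7.59% were. Called lower there were 4 of 7 markers of Schwann cells and 4 of 12 of myofibers, beside 9.81% of all probes. In TA cytoplasm 3 of 7 cycling cell markers were called higher (5.12% of all probes) and 4 of 7 Schwann cell markers lower (7.33%). The part of these cells in the TA differences was not tested. In nuclei the 2 variant 1 probes of Pde4dip were lower in TA, by -0.73 ± 0.22 and -0.65 ± 0.21 (adjusted p = 0.0364 and 0.0475), as was Akap6 A_55_P2350022, dim in both muscles (-0.73 ± 0.23, adjusted p = 0.0419). These are 3 of 11 probes, beside 9.81% of all probes called lower, and with replicate numbers as a block none of the 3 passed (adjusted p from 0.0559 to 0.0695). The count fell to 0 without any 1 of the EDL or soleus nuclei arrays or TA nuclei 1 or 2, was 1 without TA nuclei 3 and 5 without TA cytoplasm 1. In cytoplasm the upstream Pde4dip probe (-1.16 ± 0.35, adjusted p = 0.0397) and Akap9 (-1.37 ± 0.29, adjusted p = 0.0106) were lower in TA, beside 7.33% of all probes. Within slide 1, which holds only TA cytoplasm 1, these differences were -0.40 and -1.31, values of 1 array against 3 with no test. With the Cdk5rap2 probe described next, 3 probes passed in cytoplasm, and 0 did without TA cytoplasm 2, 1 without EDL cytoplasm 1, EDL cytoplasm 2 or TA cytoplasm 3, and 5 without TA cytoplasm 1 or soleus cytoplasm 2.

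Cdk5rap2, the paralog of Pde4dip that anchors the gamma-tubulin ring at the centrosome, did not move as 1 gene. At A_55_P2112240, the values in EDL were 7.22, 6.39 and 7.00 in cytoplasm and 7.88, 7.88 and 7.8 in nuclei. In soleus they were 6.85, 6.80 and 6.91 against 7.78, 7.58 and 7.84. TA cytoplasm gave 6.83 on the slide 1 array and 9.26 and 9.50 on the other 2, against 8.92, 8.80 and 9.18 in TA nuclei. The lone TA array on slide 1 thus sat with EDL and soleus, and the 5 TA arrays on slides 3 and 4 were all higher. Muscle, mouse and slide cannot be told apart for this split. The summed intensity of the 9 cycling cell markers was 2233 to 3641 in TA nuclei and 386.8 to 418.8 in EDL nuclei, and 1224 to 7010 in TA cytoplasm against 916.3 to 1146 in EDL cytoplasm. Its part in the level of this centrosome gene was not tested. Over the 3 muscles the difference between fractions was 0.77 ± 0.28 (adjusted p = 0.0219), and it was 0.99 ± 0.48 in EDL and 0.88 ± 0.48 in soleus, which did not pass (adjusted p = 0.10 and 0.16). Without TA cytoplasm 1, whose spread widens the error of this probe in every muscle, both passed (adjusted p = 0.000834 and 0.00232) and the TA difference turned from 0.43 to -0.42. The higher level in TA than in EDL cytoplasm (1.67 ± 0.48, adjusted p = 0.0346, beside 5.12% of probes) was -0.04 within slide 1.

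Probe A_55_P2112235, further upstream, was well above background on 13 arrays and was higher in nuclei by 0.65 ± 0.24 (adjusted p = 0.0279), a call lost in 7 of the 18 fits without 1 array. These 7 left out EDL cytoplasm 1, EDL cytoplasm 2, EDL nuclei 3, soleus cytoplasm 2, soleus cytoplasm 3, soleus nuclei 3 or TA cytoplasm 1, with adjusted p up to 0.0588. The call was also lost with 75th percentile scaling (0.22, adjusted p = 0.40) and with normexp (0.12, adjusted p = 0.18). The most downstream probe was A_55_P2228948. Its values were 5.27, 4.88 and 5.43 in EDL cytoplasm against 5.1, 5.1 and 5.45 in nuclei. In soleus they were 5.49, 5.42 and 5.66 against 4.85, 5.56 and 5.6, and in TA 5.14, 5.63 and 4.92 against 4.26, 3.98 and 5.07. Only TA showed a lower level in nuclei past the threshold (-0.79 ± 0.29, adjusted p = 0.0307), with overlapping arrays, and the call was lost without TA cytoplasm 2, TA nuclei 1 or TA nuclei 2 (adjusted p up to 0.15), with normexp (-0.21, adjusted p = 0.12) and with dim spots kept (-0.48, adjusted p = 0.18). Over the 3 muscles it was -0.32 ± 0.17 (adjusted p = 0.0991), against -0.68 (adjusted p = 0.00237) with 75th percentile scaling and 0.039 without scaling.

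Set against A_55_P2112240 on the same array, A_55_P2228948 was lower in nuclei than in cytoplasm by 1.09 on average (exact two-sided permutation of the fractions within each muscle, 8000 assignments, p = 0.00075, 0.00225 after Benjamini-Hochberg over 3 pairs). The mean of the within-array difference went from -1.67 to -2.64 in EDL, from -1.33 to -2.39 in soleus and from -3.30 to -4.53 in TA. The TA fractions overlapped, with -1.69 on the slide 1 array and -3.63 and -4.58 on the others in cytoplasm. TA nuclei gave -4.66, -4.81 and -4.11, and A_55_P2228948 was well above background on 1 of these 3 arrays. The average shift over the 3 muscles held when each array was left out in turn (-1.30 to -0.82, the latter without TA cytoplasm 1). With only spots well above background it was -0.90 and did not pass (exact permutation, adjusted p = 0.11). The other pair of Cdk5rap2 probes shifted by -0.12 (exact permutation p = 0.667) and the Akap6 pair by -0.48 (exact permutation p = 0.06, 0.09 after adjustment).

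The dependence of the fraction difference on muscle was tested for all 11 probes with limma and 0 passed, beside 1.57% of the 40541 probes tested. Without EDL cytoplasm 3, TA cytoplasm 1 or TA cytoplasm 3 the count was 1. Below 0.05 before adjustment were Akap9 and Akap6 A_55_P2350022, whose spots in EDL and TA were all dim.

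Other genes had a profile like that of the Pde4dip variant 1 end. Over the 6 group means, the nearest of 19642 probes to A_55_P1984178 were those of Ttn, the giant sarcomere protein titin (root mean square distance 0.060 on the log2 scale), Ncor1, a nuclear corepressor (0.064), Capn7, a calpain protease (0.065), Camk2b, a calcium and calmodulin kinase (0.070), and Atp11a, a phospholipid flippase (0.071). Nuclei exceeded cytoplasm by 1.27 to 1.36 at these 5 probes over the 3 muscles. Among members, Pcnt was nearest at 0.37 and Akap9 next at 0.47. Near Pde4dip on chromosome 3 lay Prkab2, a subunit of AMP-activated kinase on the opposite strand, 1.13 ± 0.14 higher in nuclei (adjusted p = 4.35e-06), and 3 probes of Fmo5, of which 1 was higher and 2 lower in nuclei. None of these 4 probes fell between the Pde4dip probes. The 1 probe near Akap9 was of Cyp51 and could not be tested, and none lay within 50 kb of the other members.

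Genes of the same pathways moved in both directions. Each listed gene was taken by its brightest probe, and the lists were drawn up with earlier results known. Of 19 other A-kinase anchoring proteins tested, 8 were called higher in nuclei over the 3 muscles and 1 lower, with a median of 0.42. Akap8, a nuclear anchoring protein, was 1.91 ± 0.18 higher and Akap13, another anchoring protein, was 1.72 ± 0.10 higher, while Akap3, known from sperm, was at -0.57 ± 0.14. Of 27 genes of cAMP signalling, 17 were higher and 7 lower, with a median of 0.65. Pde7a and Adcy7, a phosphodiesterase and an adenylyl cyclase, were 2.01 ± 0.45 and 1.86 ± 0.46 higher, and Pde8b (-1.04 ± 0.18) and the kinase inhibitor Pkib (-1.02 ± 0.14) were lower.

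Of 30 genes of the pericentriolar matrix and gamma-tubulin ring tested, 15 were higher and 6 lower, with a median of 0.39. The largest changes were at Plk2, a centriole kinase (2.04 ± 0.19), and Tubgcp5, a ring subunit (1.22 ± 0.29), and in the other direction at Ninl (-1.48 ± 0.13) and the mitotic kinase Plk1 (-1.26 ± 0.19). Among 12 genes for microtubule ends 8 were higher and 0 lower, led by the dynein heavy chain Dync1h1 (1.48 ± 0.40) and its regulator Ndel1 (1.06 ± 0.14). Nuclear envelope linkers were divided, 4 higher and 3 lower of 10, with lamin B1 (Lmnb1, 1.83 ± 0.39) and nesprin-2 (Syne2, 1.82 ± 0.17) higher and nesprin-1 (Syne1, -1.02 ± 0.21) and Tmpo (-0.99 ± 0.12) lower. Of 23 partners of mAKAP 15 were higher and 1 lower, with the ryanodine receptor Ryr1 (1.91 ± 0.15) and Hdac4 (1.48 ± 0.25) leading and the cyclase Adcy5 at -0.85 ± 0.12. These counts stand beside 31.2% of all probes called higher and 38.6% called lower.

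**Figure D4:**
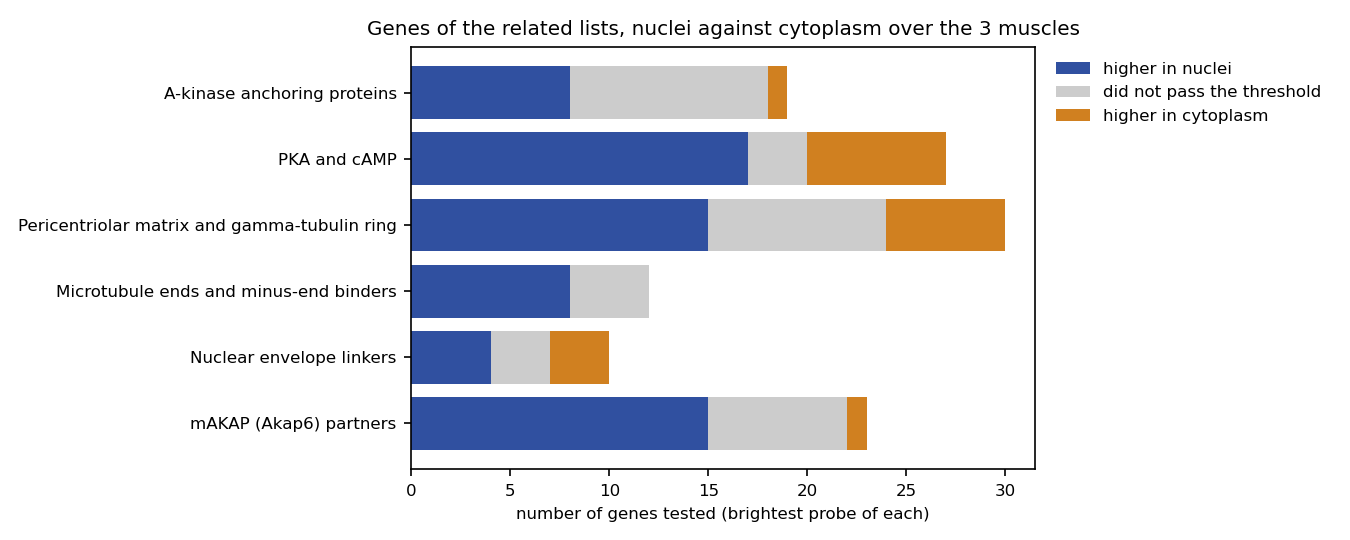
Number of genes (x axis) in each related list (y axis) that were called higher in nuclei, called higher in cytoplasm or did not pass the threshold over the 3 muscles, by the brightest probe of each gene. The cAMP list has 17 higher and 7 lower of 27, and the envelope linkers 4 and 3 of 10.

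Between soleus and EDL few genes of the related lists were called. Of all probes tested, 1.56% were called in either direction in nuclei and 1.42% in cytoplasm. In nuclei Rapgef4, the cAMP sensor Epac2, was called higher in soleus (2.30 ± 0.27, adjusted p = 0.000454), and Ppp3r1, the regulatory subunit of calcineurin, lower (-0.95 ± 0.22, adjusted p = 0.0416). In cytoplasm Rapgef4 was again higher (3.22 ± 0.30), and Hif1a (-2.07 ± 0.27) and the catalytic subunit gene Ppp3cb (-0.85 ± 0.19) were lower. No other listed gene passed in either fraction.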

How the data were processed

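RNA of nuclear and cytoplasmic fractions was measured on single-colour Agilent arrays. Per the file headers, the deposited scanner output gives each spot an intensity, corrected for background by Agilent Feature Extraction 10.7.3.1 and not scaled between arrays. The authors' own table of quantile-normalized values, with 3687 features, holds 0 member probes and was not used.

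Processed intensity was taken to log2. Spots that were not positive and significant, or that the scanner software marked as outliers, became missing values, 3671 control spots were removed, and arrays were quantile-normalized. The 6 group means were fitted over all probes with limma 3.58.1 in R 4.3.3 (12 residual and 3.27 prior degrees of freedom), with eBayes and Benjamini-Hochberg adjustment over the probes with values on at least 2 of 3 arrays in each group compared. The threshold was an adjusted p of 0.05, two-sided. The study's Significance Analysis of Microarrays was not run. Dim groups were given as bounds. Differences between probes of 1 gene were tested by exact permutation. The fit and the permutation test were checked on simulated data. Alternatives were 2 other scalings, normexp (offset 50), other flags, blocks, slides, averaged nuclear arrays and leaving out each array. Figures were drawn with Python 3.11.15 and matplotlib 3.10.9, with numpy 2.4.6, pandas 2.3.3, statmod 1.5.0 and version 1.17.8 of data.table.

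All probes of the 5 genes were named. A listed gene was given by its brightest probe, with the 2 largest calls in each direction as examples. The 5 probes nearest to Pde4dip in profile were taken among those measured on 18 arrays and well above background on at least 9. Probes of other names within 50 kb were counted. The members and lists were chosen with earlier results of these data known. Some marker gene results are not reported here.

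EDL and soleus samples with the same number share their mice according to the labels, TA samples only in part. Deviations of same-numbered arrays from their group means correlated with r between -0.11 and 0.13 over 15 pairs and 35528 probes. The number of arrays limits the precision, and pools that share mice are not independent animals. Limma's p-values rest on 1 spread per probe shared by the 6 groups. The median SD of a probe was 0.12 to 0.16 in nuclei and 0.28 to 0.42 in cytoplasm. A comparison within nuclei therefore also carries the larger spread of cytoplasm.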

Additional observations from a re-analysis of the deposited data

How the results depend on the processing

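Over 74 results, other settings left 513 values with the same direction and side of the threshold (or near the main value where there was no test), while 63 moved, 46 lost the threshold, 9 gained it and 11 reversed. With 1 array left out, 1198 were the same, 78 lost the threshold, 38 moved, 7 gained it and 7 reversed. Without scaling the median of all probes moved from -0.08 to 0.42 (log2, nuclei against cytoplasm over the 3 muscles), and with 75th percentile scaling to -0.30. The cause of the changes below was not tested.

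With 75th percentile scaling the member counts were 1 for soleus against EDL in cytoplasm, 1 and 5 for TA against EDL in nuclei and cytoplasm and 1 for the interaction. Cdk5rap2 A_55_P2228948 turned to -0.37 in EDL and Akap6 A_55_P2350022 to -0.34 in TA. Without scaling the counts were 7 for fractions in soleus, 2 and 1 for soleus against EDL in nuclei and cytoplasm, 8 for TA against EDL in nuclei and 2 for the interaction. Cdk5rap2 A_55_P2228948 turned to 0.039 over the 3 muscles and 0.72 in soleus, and Akap6 A_55_P2350022 to -0.047 in TA. Under both scalings the Akap6 pair shifted by -0.57 (exact permutation, adjusted p = 0.0368), and with dim spots kept by -0.57 (adjusted p = 0.0488, exact permutation). With normexp the counts were 2 for fractions in TA, 2 and 0 for soleus against EDL and 5 for TA against EDL in cytoplasm, the Akap6 pair shifted by -0.21 (exact permutation, adjusted p = 0.003) and the Pde4dip A_55_P1984173 pair turned to -0.18.

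With spots well above background required, the counts were 3 over the 3 muscles, 2 in EDL and 2 in TA for fractions and 0 for soleus against EDL in cytoplasm. Cdk5rap2 A_55_P2228948 turned to 0.12 in soleus, and its pair shifted by -0.90 (exact permutation, adjusted p = 0.11). With nuclear arrays averaged to 1 sample the fraction counts were 0 in EDL, 0 in soleus and 1 in TA, and all 4 muscle counts were 0.

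With replicate numbers as a block 0 member probes passed for TA against EDL in nuclei, and with the mouse pools of EDL and soleus as a replicate block 1 passed for soleus against EDL in cytoplasm. With slide as a block, where 1 TA cytoplasm array stands for its group and is assumed to vary like the others, the counts were 1 for soleus against EDL and 0 for TA against EDL in cytoplasm. Akap6 A_55_P2350022 turned to -0.12 in TA, and Cdk5rap2 A_55_P2112235 to -0.040 and A_55_P2112240 to -0.30 there, the last also to -0.036 for TA against EDL in cytoplasm. The slide block could not be fitted for fractions over the 3 muscles, in EDL or in soleus, for TA against EDL in nuclei or for the interaction, and the authors' value table gave no member value.

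Leaving out 1 array at a time gave fraction counts of 4 to 7 over the 3 muscles, 4 to 5 in EDL, 4 to 6 in soleus and 2 to 4 in TA, the 2 without TA cytoplasm 1 or TA nuclei 2. Counts were 0 to 1 and 1 to 2 for soleus against EDL in nuclei and cytoplasm, 0 to 5 and 0 to 5 for TA against EDL and 0 to 1 for the interaction. The pair shifts ranged from -0.63 to -0.37 for Akap6, from -0.25 to 0.049 for Cdk5rap2 A_55_P2112235 (0.049 without soleus cytoplasm 1, 0.034 without TA cytoplasm 1) and from -1.30 to -0.82 for A_55_P2228948. Cdk5rap2 A_55_P2228948 ranged from -0.14 (without EDL cytoplasm 2) to 0.14 in EDL, turning to -0.092 without EDL nuclei 3, and from -0.32 to 0.055 (without soleus nuclei 1) in soleus. Cdk5rap2 A_55_P2112240 ranged from -0.42 (without TA cytoplasm 1) to 0.92 in TA, and the Pde4dip A_55_P2058137 pair from -0.00080 (without soleus cytoplasm 2) to 0.049. Signal limits Akap6 most, with A_55_P2350022 well above background on 3 of 18 arrays.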
